A study of Mus musculus with 24 samples.

Results

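The NF-kB system was followed through 10 of its genes, for 5 subunits and 5 feedback inhibitors or survival factors, in mouse gliomas driven by PDGFB. The members were taken from the deposited table by symbol, 10 of its 55938 genes: the subunit genes Nfkb1, Nfkb2, Rela, Relb and Rel, the inhibitors Nfkbia, Nfkbie, Tnfaip3 and Tnip1, and the ubiquitin ligase gene Birc3. They were chosen from knowledge of the pathway after Tnfaip3 had stood out between late and early symptomatic glioma cells, so that comparison selected on measured values. It is given as a description, and the calls in it are no test of the members. Every other comparison that includes early or late glioma libraries shares libraries with it and is not independent of that choice for Tnfaip3.

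NF-kB is a family of dimeric transcription factors held in the cytoplasm by IkB proteins and released when receptors of cytokines or microbial products activate the IkB kinases. In the canonical branch Rela and Rel pair with the product of Nfkb1. In the alternative branch Relb pairs with the product of Nfkb2, whose precursor is processed downstream of the kinase NIK. The factors induce their own inhibitors, among them the IkB proteins encoded by Nfkbia and Nfkbie and the ubiquitin editor A20, encoded by Tnfaip3, and in brain these genes are read mainly as signs of inflammatory signalling in microglia and macrophages, endothelium and astrocytes.

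Gliomas were raised by PDGFB transfer into the telencephalic ventricles of embryos in utero, and 12 tumours were dissected under fluorescence and sorted. PolyA RNA was sequenced with a Lexogen CORALL kit. The fluorescent cells (glioma) and the cells lacking fluorescence (surrounding) of a tumour gave 1 library each, so 24 libraries formed 6 groups of 4. All came from transduced brains, the glioma cells labelled PDGFB positive and the surrounding cells PDGFB negative, with no other treatment in the labels and no brain without tumour among the groups. The asymptomatic tumours were 3228A, 3228B and 3228D at 33 days after transduction and 3229B at 34 days. The early symptomatic tumours were 3108C and 3108D at 43 days, 3109D at 50 days and 3145A at 35 days. The late symptomatic tumours were 3054A at 120 days, 3054B and 3054C at 175 days and 3057E at 100 days. Values of a group are given below in these orders of tumours. The labels name no mouse strain and no promoter, and they do not say whether the introduced PDGFB is counted as the mouse gene. Early and late rest on the letters that end the labels, and stage, day and code prefix cannot be told apart.

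Totals ranged from 9.08e+06 to 1.55e+07 counts per library. Microglia markers check the sort: 12 of 12 were detected in every library, and their summed level was 114 to 1863 CPM (counts scaled to library size) in glioma cells, against 1679 to 13132 CPM in surrounding cells. The libraries of 3057E stood apart, with 1863 CPM of microglia markers in its glioma cells, labelled red where all others are green, and 1679 CPM in its surrounding cells. The other 11 glioma libraries held 114 to 648 CPM. Markers of oligodendrocyte progenitor cells summed to 10970 to 18990 CPM in glioma cells, against 693 to 13534 CPM in surrounding cells. In 3108D and 3109D the sex-linked genes Xist and Ddx3y disagreed between the glioma and surrounding library, so their pairs, but not their groups, are uncertain. In these bulk libraries fewer cells of a type and less RNA per cell cannot be told apart.

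Promoters of the members whose levels separated the populations most widely, and for which a match existed, are shown first, because the kappaB element is the DNA sequence that NF-kB dimers bind. RefSeq promoter windows of 300 bases in GRCm38.p6 (250 before and 50 after a start site) were found for 8 of the 10 members, all but Nfkb1 and Relb. They were searched on both strands for the classical 10-base kappaB consensus. Of the 8 members with a window 6 held at least 1 match, against 9.55% of 27027 genes with a window and 8.46% of all 32851 windows. The members were chosen from knowledge of the pathway, so this share is a description and tests nothing. The 250 bases before the start are printed 5′ to 3′ on the gene's strand with matches in capitals, for Tnfaip3 (chr10:19015411-19015660, minus strand), Nfkbia (chr12:55492648-55492897, minus strand) and Nfkb2 (chr19:46304487-46304736, plus strand).
Tnfaip3: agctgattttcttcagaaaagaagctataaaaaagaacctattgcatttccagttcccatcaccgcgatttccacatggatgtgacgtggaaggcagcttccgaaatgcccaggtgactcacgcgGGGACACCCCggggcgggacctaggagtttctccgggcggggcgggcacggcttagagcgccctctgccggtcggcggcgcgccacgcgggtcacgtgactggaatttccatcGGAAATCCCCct
Nfkbia: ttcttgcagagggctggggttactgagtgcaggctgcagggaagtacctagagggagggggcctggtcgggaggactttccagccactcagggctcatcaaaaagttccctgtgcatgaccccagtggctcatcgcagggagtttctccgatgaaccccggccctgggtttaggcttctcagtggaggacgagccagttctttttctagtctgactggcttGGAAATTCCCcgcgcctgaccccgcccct
Nfkb2: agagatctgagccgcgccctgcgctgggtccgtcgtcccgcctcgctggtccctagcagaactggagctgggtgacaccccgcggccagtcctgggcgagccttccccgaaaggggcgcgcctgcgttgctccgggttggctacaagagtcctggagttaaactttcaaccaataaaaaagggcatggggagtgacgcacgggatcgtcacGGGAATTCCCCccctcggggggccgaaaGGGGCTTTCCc
Tnfaip3 has 1 match from base -125 to -116 before its start and another from -12 to -3. The single match of Nfkbia lies at -29 to -20, and in Nfkb2 overlapping matches at -39 to -29 precede 1 at -11 to -2. Only the first window of Tnfaip3 and of Nfkb2 is printed. Window 2 of Tnfaip3 held 0 matches. Window 2 of Nfkb2 held matches at -236 to -227 and, after the start, at 11 to 20, and window 3 held 1 at -225 to -216. The other members with a match are shown by the match with 8 flanking bases on each side, to compare the element itself.
Nfkbie: agcaaacaGGGGGATTCCggaggggc
Rel: taagcagcGGGAAATCCCCccccctcc
Tnip1: ccatcatgGGGGAATTCCCCtcctgcct
These lie at -106 to -97 in Nfkbie, at -92 to -82 in Rel and at -58 to -47 in Tnip1. The bases after the start of the Tnip1 window were found in 0 GENCODE M21 transcripts of that gene, so its positions are less certain. No match was found in the windows of Rela and Birc3, and nothing follows from that about binding. A match describes the letters of the window, not an occupied site.

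Glioma cells were compared with surrounding cells to see how the NF-kB system differs between the tumour cells and their neighbours. All 10 members were lower in the glioma cells by edgeR's quasi-likelihood test, where 24.2% of 18810 genes were called lower and 46.3% called in either direction. Their median log2 fold change was -1.79, against 0.06 over all tested genes. The differences ran from Rela (log2 fold change -0.69 with SE 0.14, 12 libraries in each population), the subunit nearest to equal, to Birc3 (-4.76 ± 0.31). In 3 members, Tnfaip3, Nfkb1 and Birc3, no glioma library reached any surrounding library, a pattern that 5.58% of tested genes showed. Each member was lower in the glioma library in 12 of 12 tumours as coded.

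**Figure D1:**
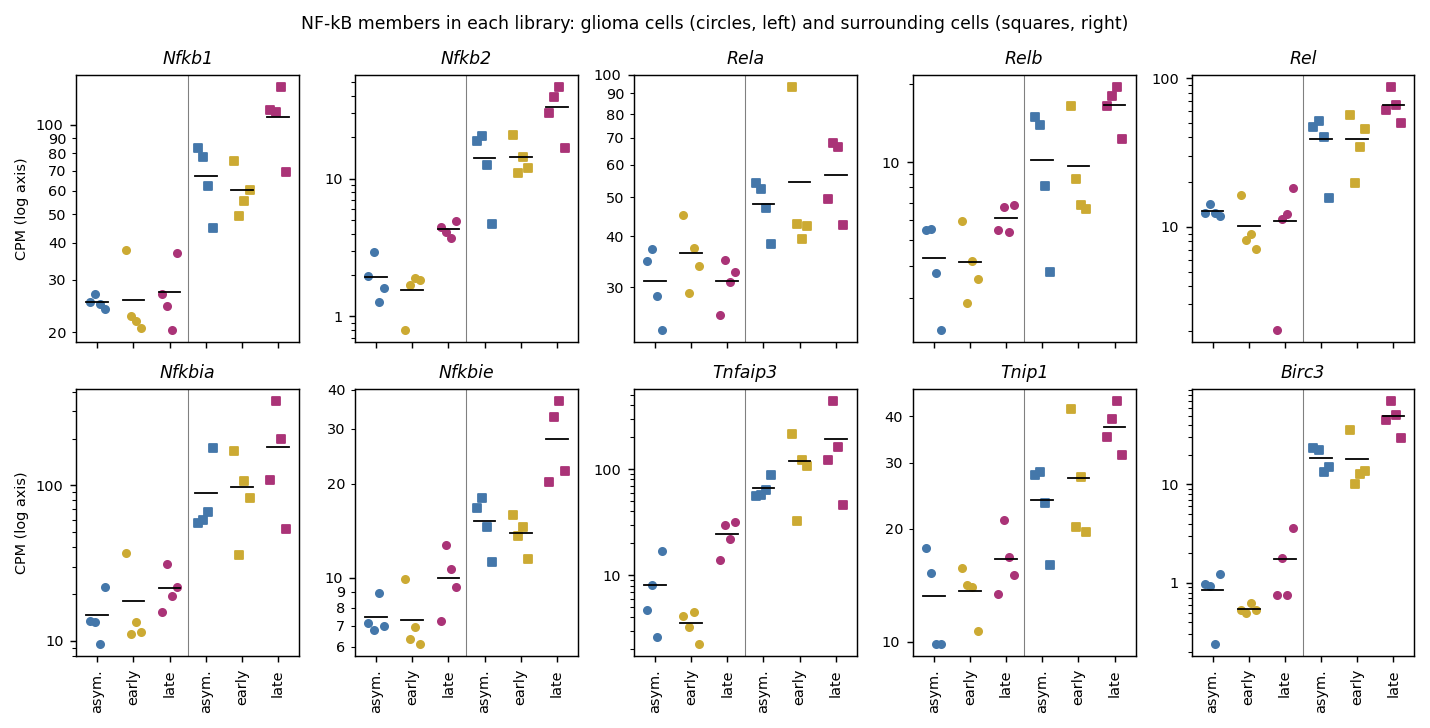
Level of each member in every library, in CPM on log axes that differ between panels; circles are glioma cells and squares surrounding cells, each at the asymptomatic, early and late symptomatic stage, and bars are means of 4 libraries. At each stage the glioma mean lies below the surrounding mean in all panels. Over all libraries the populations do not overlap for Nfkb1, Tnfaip3 and Birc3 and overlap in the other panels.

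Of the subunits, Nfkb1 (ENSMUSG00000028163, chromosome 3, 135584655 to 135691547, minus strand), which encodes the p105 precursor of p50, separated the populations at every stage. In glioma cells it stood at 25.2, 27.0, 24.9 and 24.01 CPM in the asymptomatic, 37.7, 22.7, 21.8 and 20.7 CPM in the early and 27.0, 24.5, 20.4 and 37.1 CPM in the late tumours. In surrounding cells it stood at 83.3, 78.1, 62.3 and 45.05 CPM in the asymptomatic, 75.2, 49.3, 55.5 and 60.4 CPM in the early and 112, 110, 134 and 69.3 CPM in the late tumours. The glioma values kept to a narrow band, while 3 of the 4 late surrounding libraries were the highest of all. The log2 fold change was -1.53 ± 0.14 (SE, n = 12 per population, edgeR adjusted p = 1.92e-08).

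Nfkb2 (ENSMUSG00000025225, chromosome 19, 46304320 to 46312385, plus strand), the precursor gene of the alternative branch, had the largest difference among the subunits. It stood at 1.96, 2.94, 1.27 and 1.61 CPM in asymptomatic, 0.801, 1.69, 1.89 and 1.84 CPM in early and 4.48, 4.11, 3.71 and 4.97 CPM in late glioma cells. In surrounding cells it stood at 18.7, 20.2, 12.5 and 4.69 CPM in the asymptomatic, 20.6, 11.1, 14.3 and 11.9 CPM in the early and 30.0, 39.4, 46.5 and 16.6 CPM in the late tumours. The populations touched only where the late glioma 3057E (4.97 CPM) passed the asymptomatic surrounding library of 3229B (4.69 CPM). The log2 fold change was -3.00 ± 0.24 (SE, n = 12 per population, edgeR adjusted p = 3.41e-09). Its exons share 531 bases with AC114539.1 and 299 bases with Psd, both on the opposite strand, and since the strand setting of the counting is not given its counts are uncertain to that extent.

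Rel (ENSMUSG00000020275, chromosome 11, 23736847 to 23770970, minus strand), a subunit gene known for its high level in immune cells, ranged from 2.03 to 18.1 CPM in glioma libraries (median 12.1 CPM) and from 15.7 to 87.7 CPM in surrounding libraries (median 48.4 CPM). Its log2 fold change was -2.05 ± 0.27 (edgeR adjusted p = 1.71e-06), and the populations overlapped where the glioma libraries of 3057E (18.1 CPM) and 3108C (16.4 CPM) passed the surrounding library of 3229B (15.7 CPM). Relb (ENSMUSG00000002983, chromosome 7, 19606217 to 19629438, minus strand), the partner of the Nfkb2 product, ranged from 2.26 to 6.87 CPM in glioma and from 3.79 to 19.6 CPM in surrounding libraries (-1.30 ± 0.22, edgeR adjusted p = 5.68e-05). Rela (ENSMUSG00000024927, chromosome 19, 5637483 to 5648130, plus strand), the main activating subunit of the canonical branch, ranged from 23.6 to 45.03 CPM in glioma and from 38.3 to 93.4 CPM in surrounding libraries (-0.69 ± 0.14, edgeR adjusted p = 0.000443). Rela and Relb overlapped between the populations.

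Among the inhibitors, Tnfaip3 (ENSMUSG00000019850, chromosome 10, 19000910 to 19015657, minus strand) was the most reduced. It stood at 4.66, 8.06, 2.63 and 17.004 CPM in asymptomatic, 4.09, 3.28, 4.50 and 2.24 CPM in early and 13.9, 29.9, 21.98 and 31.6 CPM in late glioma cells. In surrounding cells it stood at 55.9, 56.6, 63.0 and 88.7 CPM in the asymptomatic, 215, 32.6, 122 and 106 CPM in the early and 122, 438, 162 and 45.9 CPM in the late tumours. The lowest surrounding library, 3108D, was just above the highest glioma library, 3057E. The log2 fold change was -3.69 ± 0.37 (SE, n = 12 per population, edgeR adjusted p = 5.25e-08). Within single tumours the surrounding level was 1.45 times the glioma level in 3057E and 52.6 times in 3108C, the extremes of the 12 pairs.

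Nfkbia (ENSMUSG00000021025, chromosome 12, 55489410 to 55492647, minus strand), the gene of IkB-alpha, which binds the factors in the cytoplasm, stood at 13.4, 13.2, 9.48 and 22.2 CPM in asymptomatic, 36.6, 11.03, 13.1 and 11.3 CPM in early and 15.3, 31.0, 19.3 and 22.2 CPM in late glioma cells. In surrounding cells it stood at 57.4, 59.8, 67.4 and 174 CPM in the asymptomatic, 167, 35.6, 106 and 82.6 CPM in the early and 108, 349, 199 and 52.6 CPM in the late tumours. One glioma library, 3108C, passed 1 surrounding library, 3108D, and no others crossed. The log2 fold change was -2.69 ± 0.33 (SE, n = 12 per population, edgeR adjusted p = 6.95e-07).

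Nfkbie (ENSMUSG00000023947, chromosome 17, 45555703 to 45563169, plus strand), the gene of IkB-epsilon, ranged from 6.12 to 12.7 CPM in glioma and from 11.2 to 36.7 CPM in surrounding libraries (-1.14 ± 0.14, edgeR adjusted p = 6.43e-07). Tnip1 (ENSMUSG00000020400, chromosome 11, 54910785 to 54962917, minus strand), whose product binds A20 and ubiquitin, ranged from 9.85 to 21.1 CPM in glioma and from 16.1 to 43.9 CPM in surrounding libraries (-1.01 ± 0.15, edgeR adjusted p = 1.04e-05). Birc3 (ENSMUSG00000032000, chromosome 9, 7848699 to 7873186, minus strand) encodes cIAP2, a ubiquitin ligase that acts at TNF receptors and limits cell death. It ranged from 0.239 to 3.64 CPM in glioma cells, with 3057E highest, and from 10.2 to 70.1 CPM in surrounding cells (-4.76 ± 0.31, edgeR adjusted p = 4.76e-10). Birc3 was the member closest to absence in the glioma libraries and separated the populations without overlap.

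Per length of exon the order of the members differed between populations. In glioma cells Nfkbia (mean 11.3 CPM per kb) and Rela (10.7 CPM per kb) had the highest levels, followed by Tnip1 (4.09 CPM per kb), and the lowest were Nfkb2 (0.569 CPM per kb) and Birc3 (0.208 CPM per kb). In surrounding cells Nfkbia led at 75.5 CPM per kb, and Tnfaip3 (17.4 CPM per kb) stood beside Rela (17.3 CPM per kb). Tnfaip3 was at 1.66 CPM per kb in glioma cells, far below Rela there. Relb had the lowest level of the surrounding cells at 3.13 CPM per kb.

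Marker genes of other cells also differed between the populations. By edgeR's test the glioma cells were lower in 12 of 12 microglia, 12 of 12 T and NK cell, 11 of 12 endothelial and 11 of 12 monocyte and macrophage markers, with the remaining monocyte and macrophage marker higher. All 12 microglia markers also passed the filter on low counts within the glioma libraries, as all 10 members did, but 7 monocyte and macrophage, 5 endothelial and 0 T and NK cell markers did. The others entered the test through the surrounding libraries, where they are high, so their direction is not a finding. Astrocyte markers were lower in 6 of 10, with summed levels of 859 to 2546 CPM in glioma cells, against 309 to 6255 CPM in surrounding cells. Pericyte and smooth muscle markers were lower in 7 of 9 and higher in 1, though their summed level had a median of 753 CPM in glioma cells, against 516 CPM in surrounding cells. These 9 include Cspg4, which is also on the list of oligodendrocyte progenitor markers. Its share of the sum was not separated, so the sum does not measure pericytes and smooth muscle alone. Monocyte and macrophage markers summed to 77.5 to 716 CPM in glioma cells, against 996 to 10540 CPM in surrounding cells, and Ly6c2 was at 0 in 10 of the 12 glioma libraries. T and NK cell markers summed to at most 3.89 CPM in glioma cells, against 3.27 to 58.3 CPM in surrounding cells. Dissociation and immediate early genes, which include genes that tissue dissociation induces, were lower in 15 of 18 and summed to 806 to 2380 CPM in glioma cells, against 1270 to 9524 CPM in surrounding cells. The part of these cell types and of dissociation in the members' difference was not tested.

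**Figure D2:**
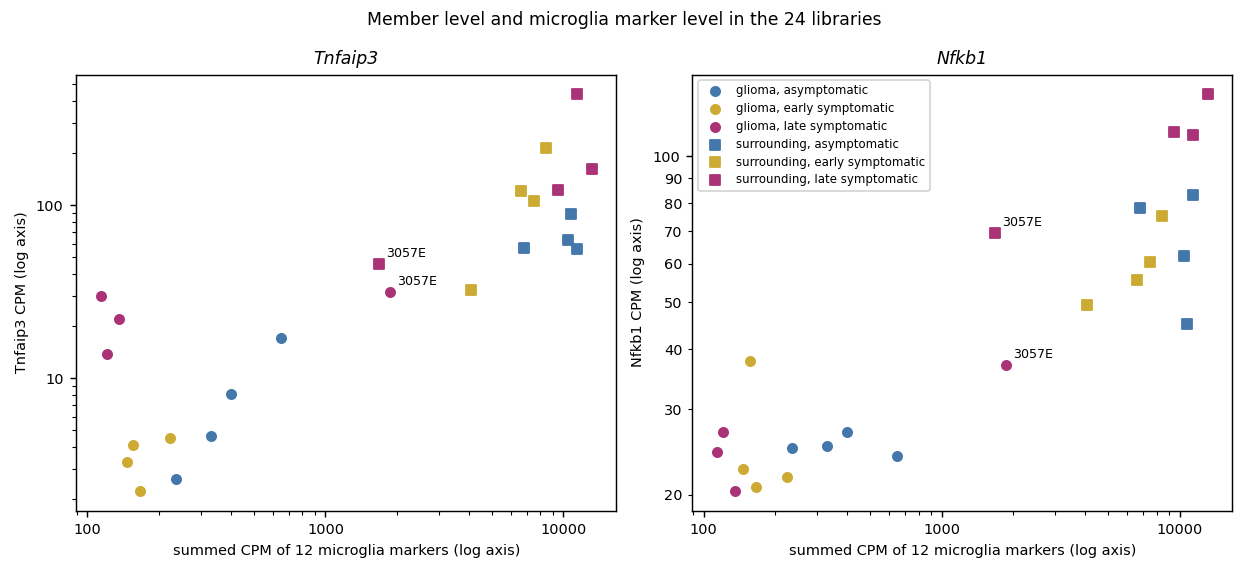
Level of Tnfaip3 (left) and Nfkb1 (right) against the summed level of 12 microglia markers in the 24 libraries, all in CPM on log axes; circles are glioma and squares surrounding cells, coloured by stage. The late gliomas 3054A, 3054B and 3054C hold 114 to 136 CPM of microglia markers with 13.9 to 29.9 CPM of Tnfaip3. Tnfaip3 was chosen by its late and early glioma values, and the part of microglia in its level was not tested. In microglia markers, but not in the level of both members, the libraries of 3057E lie between the other libraries of the populations.

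The other genes of the pathway were described from lists chosen by role, in a comparison that called 22% of tested genes higher and 24.2% lower. By edgeR's test, of 19 receptors and adaptors 12 were lower and 0 higher in glioma cells, with a median log2 fold change of -1.22. They included Tlr3, a receptor of double-stranded RNA (-2.61 ± 0.22), Tlr4, the receptor of bacterial lipopolysaccharide (-4.56 ± 0.43), Cd40 (-5.33 ± 0.45) and the adaptor Myd88 (-2.70 ± 0.28). The TNF receptor gene Tnfrsf1a was not called (0.06 ± 0.18), and this gene and the next were named after their values were seen. Tnfrsf1b, the TNF receptor of immune cells, was lower (-5.16 ± 0.56). Of 15 kinases and kinase adaptors 11 were lower, led by Card9 (-5.34 ± 0.53), Malt1 (-2.75 ± 0.29), Map3k14, which encodes NIK (-1.68 ± 0.21), and Map3k8 (-2.91 ± 0.41). The only kinase called higher was Map3k7, which encodes TAK1 upstream of the IkB kinases (0.63 ± 0.09, with means of 169 CPM in glioma and 110 CPM in surrounding cells).

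Of 10 ligands 8 could be tested and 6 were lower, among them Il1b (-6.46 ± 0.67), Il1a (-4.92 ± 0.67), Tnf (-4.82 ± 0.68) and Tnfsf13b (-4.17 ± 0.46). Ltb was listed at 0 in every glioma library, so no fold is given for it. Of 19 other inhibitors and ubiquitin editors 14 were lower, with Zc3h12a, a ribonuclease gene that limits cytokine mRNA (-4.50 ± 0.47), Trim30a (-4.85 ± 0.58), and the nuclear IkB genes Nfkbid (-3.81 ± 0.50) and Nfkbiz (-2.23 ± 0.28). The deubiquitinase Cyld was not called (-0.08 ± 0.12). Of 28 target genes 26 were tested and 25 were lower, with the caspase-8 regulator Cflar (-1.80 ± 0.16) and the chemokines Ccl5 (-4.97 ± 0.50), Cxcl2 (-6.11 ± 0.63) and Ccl2 (-4.17 ± 0.43). Within the glioma libraries 18 of the 26 passed the filter on low counts. The other 8, Ccl5 and Cxcl2 among them, entered through the surrounding libraries, where they are high, so their direction is not a finding. On the same terms 18 of 19 receptors and adaptors, 13 of 15 kinases, 6 of 8 ligands and 17 of 19 other inhibitors passed within the glioma libraries, with Cd40, Card9, Il1b and Zc3h12a among those that did not. The target called higher was Sod2, the mitochondrial superoxide dismutase (0.38 ± 0.10). Cyld and Sod2 were outside the rule for named genes, and Map3k7 was named as the only kinase called higher. All values here are log2 fold changes of glioma over surrounding cells with SE and n = 12 per population.

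The difference between the populations was then taken stage by stage. In asymptomatic tumours 9 of the 10 members were lower in glioma cells, where 12.5% of genes were called lower, and in late tumours all 10 were, where 19.9% were. In early symptomatic tumours 9 were lower, where 12.4% of genes were, but without 3108D and 3109D the number was 4 (Tnfaip3, Nfkb1, Nfkb2 and Birc3), where 6.49% were. Single tumours changed other calls at these stages: Rel, Relb or Tnip1 lost theirs in the asymptomatic comparison without 3228A, 3228B or 3228D, and Nfkbie, Relb or Tnip1 in the early one without 3108C, 3108D, 3109D or 3145A, Relb also without 3054A or 3054B. Without 3054C Rela lost its call at the late stage, and without 3108C it gained one at the asymptomatic stage. Rela was the exception at the asymptomatic stage (-0.63 ± 0.25, SE, n = 4 per group, edgeR adjusted p = 0.102) and at the early stage (-0.58 ± 0.25, edgeR adjusted p = 0.141). With tumour as a block Rela was called at the asymptomatic stage too, with edgeR adjusted p = 0.0197, and in a fit of the 8 libraries of that stage alone, with edgeR adjusted p = 0.0360. That fit lost Relb at the asymptomatic stage (edgeR adjusted p = 0.0751) and at the early stage (edgeR adjusted p = 0.0527), where it also missed the threshold with no filter on low counts (edgeR adjusted p = 0.0579). Libraries of the populations did not overlap for 8 members at the asymptomatic stage (16.3% of genes), 8 at the early stage (14.2%) and all 10 at the late stage (15.1%).

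Tnfaip3 had the widest difference at the early stage (-5.07 ± 0.69, SE, n = 4 per group), against -3.03 ± 0.62 at the asymptomatic and -2.98 ± 0.61 at the late stage. Its early and late glioma values are those it was chosen by, so this order of stages is not independent of the choice. Birc3 was at -4.44 ± 0.53, -5.03 ± 0.56 and -4.81 ± 0.53 at the asymptomatic, early and late stages. Whether the distance changed between stages was tested as the difference of stage effects between the populations. For late against asymptomatic 0 members and 0 genes were called by edgeR (0% of 18810), with unadjusted p under 0.05 in 0 members and 1585 genes, and DESeq2 called 0 members and 0.0958% of genes. For early against asymptomatic edgeR called 0 members and 0 genes, with 1 member, Tnfaip3, and 290 genes at an unadjusted p under 0.05. The Tnfaip3 difference was -2.05 ± 0.84 (edgeR adjusted p = 0.9999), and it too rests on the early glioma values that chose the gene. DESeq2 called 0 members and 0.00532% of genes.

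**Figure D3:**
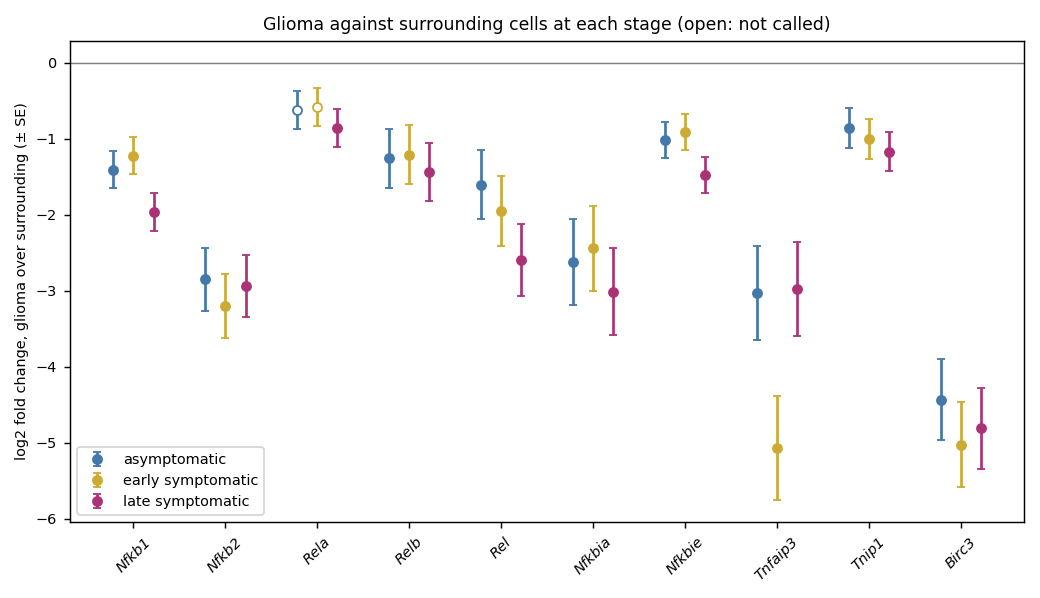
Log2 fold change of glioma over surrounding cells for each member at the asymptomatic, early and late symptomatic stage, with SE (n = 4 libraries per group); filled points were called at adjusted p under 0.05. Every point lies below 0, Birc3 lies lowest at the asymptomatic and late stages and Tnfaip3 at the early stage, and Rela is the open point at the first 2 stages. Tnfaip3 was chosen by its late and early glioma values, so its place at these stages is not independent of the choice.

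Within glioma cells, late tumours were compared with asymptomatic ones. Tnfaip3 and Nfkb2 had the largest values, but neither passed the test. Tnfaip3 averaged 24.3 ± 8.14 CPM in late and 8.09 ± 6.35 CPM in asymptomatic glioma cells (SD, n = 4 each), and the groups overlapped because the asymptomatic tumour 3229B, at 17.004 CPM, passed 3054A. Its log2 fold change was 1.59 ± 0.48 (SE, edgeR adjusted p = 0.165). For Nfkb2 every late library lay above every asymptomatic one, at 4.32 ± 0.533 CPM in late and 1.94 ± 0.720 CPM in asymptomatic glioma cells (1.16 ± 0.38, edgeR adjusted p = 0.189), a separation seen upwards in 3.52% of genes. Birc3 was at 1.05 ± 0.61 (edgeR adjusted p = 0.439), and its late values of 0.760, 1.79, 0.758 and 3.64 CPM spread widely.

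EdgeR called 0 of the 10 members in this comparison, where 0.158% of 16494 genes were called, with 2 members and 2445 genes at an unadjusted p under 0.05. With DESeq2 there was 1 member, Tnfaip3, among 3.53% of genes. Its 4 late values here are those of the comparison that chose it, so a call of Tnfaip3 is not independent of the choice. Without 3057E edgeR called 14.7% of genes and still 0 members. An added alternative without 3057E and 3229B, chosen after the data were seen, called Tnfaip3 where 10.7% of genes were called. The members' median was 0.48, against 0.04 over all tested genes, with 9 positive and Rel negative. Of the pathway lists 1 target rose, Ier3 (1.61 ± 0.24, edgeR adjusted p = 0.0230), a stress-induced survival gene with means of 43.5 CPM in late and 14.3 CPM in asymptomatic glioma cells. Ier3 was outside the rule for named genes and is named because it was called.

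Late against early symptomatic glioma cells was the comparison Tnfaip3 was chosen by, and its values are given as a description. It averaged 24.3 ± 8.14 CPM in late and 3.53 ± 0.998 CPM in early symptomatic glioma cells (SD, n = 4 each), a log2 fold change of 2.79 ± 0.51. Nfkb2 (1.47 ± 0.38) and Birc3 (1.66 ± 0.63) also lay above every early library in every late one. For Birc3 this rests on low counts, 9 and 10 in late 3054A and 3054C against 8 in early 3109D and 3145A. A separation of that kind was seen in 3 members and upwards in 3.16% of genes. The number past the threshold follows from the choice of Tnfaip3 on these values and tests nothing. It was 1 member, Tnfaip3, by edgeR, beside 0.273% of genes, and 2 members (with Nfkb2) by DESeq2, beside 6.05%. The edgeR count was 0 without any 1 of 3054A, 3054B, 3054C, 3108C, 3108D, 3109D, 3145A, 3228A and 3228B, and 2 without 3057E, where 17.2% of genes were called. None of these counts is read further.

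The microglia content of the late gliomas was uneven. In 3054A, 3054B and 3054C, microglia markers summed to 121, 114 and 136 CPM, the lowest values of the 12 glioma libraries. Tnfaip3 stood at 13.9, 29.9 and 21.98 CPM in these. In 3057E the markers summed to 1863 CPM with Tnfaip3 at 31.6 CPM. Early symptomatic glioma cells held 146 to 223 CPM of microglia markers with 2.24 to 4.50 CPM of Tnfaip3. Asymptomatic glioma cells held 235 to 648 CPM, and their highest library, 3229B, was also the highest for Tnfaip3. Immediate early genes summed to 948, 2380, 1377 and 1174 CPM in late glioma cells, against 871 to 1388 CPM in the early ones. Monocyte and macrophage markers summed to 110 to 716 CPM in late and 77.5 to 145 CPM in early glioma cells. In late against early glioma cells 11 of 12 microglia markers had positive log2 fold changes, with a median of 2.55 and 0 called. Of 7 tested monocyte and macrophage markers 6 were positive, with a median of 2.51 and 1 called higher. The late and early values are those Tnfaip3 was chosen by, and the part of these cells and of dissociation in them was not tested.

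No member passed the test between early symptomatic glioma cells and the asymptomatic ones. EdgeR called 0 members and 0 genes (0% of 16494), with 1 member, Tnfaip3, and 810 genes at an unadjusted p under 0.05. By DESeq2 there were 0 members and 0 genes (0%). The members' log2 fold changes ran from -1.20 to 0.30 with a median of -0.03. Tnfaip3 held the low end, at 3.53 ± 0.998 CPM in early and 8.09 ± 6.35 CPM in asymptomatic glioma cells (SD, n = 4 each). Its early values are among those it was chosen by, so its place and its unadjusted p here are not independent of the choice.

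In surrounding cells, late tumours were compared with asymptomatic ones to see how the tumour environment changed. All 10 members had positive log2 fold changes, from 0.23 to 1.51 with a median of 0.82 against 0.00 over all tested genes, but none passed the test in the full set. Every late surrounding library of Nfkbie was above every asymptomatic one, at 20.3, 32.6, 36.7 and 21.9 CPM in late and 16.7, 18.03, 14.5 and 11.2 CPM in asymptomatic surrounding cells (0.87 ± 0.24, SE, n = 4 per group, edgeR adjusted p = 0.150). Birc3 separated the groups in the same way, at 45.1, 70.1, 51.1 and 29.8 CPM in late and 23.4, 22.4, 13.5 and 14.98 CPM in asymptomatic surrounding cells (1.39 ± 0.40, edgeR adjusted p = 0.151). Tnip1 did so too, at 31.4 to 43.9 CPM in late and 16.1 to 28.4 CPM in asymptomatic surrounding cells (0.64 ± 0.27, edgeR adjusted p = 0.271). This pattern was seen in 3 members and upwards in 3.17% of genes.

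The late library of 3057E lay below all asymptomatic ones for Tnfaip3 and Nfkbia and among them for Nfkb1 and Nfkb2. Tnfaip3 was at 1.51 ± 0.62 (SE, edgeR adjusted p = 0.256), and at 0.73 ± 0.53 without 3054B. EdgeR called 0 members and 0 genes in this comparison (0% of 17616), with 6 members and 2822 genes at an unadjusted p under 0.05. With DESeq2 there were 2 members, Nfkbie and Birc3, among 5.83% of genes. Without 3057E edgeR called 5 members higher, where 16.4% of genes were called: Tnfaip3 (1.84 ± 0.54, edgeR adjusted p = 0.0385), Nfkbie (0.97 ± 0.25), Nfkb1 (0.82 ± 0.23), Nfkb2 (1.46 ± 0.40) and Birc3 (1.56 ± 0.40). Without both 3057E and 3229B, an alternative chosen after the data were seen, Nfkbia joined them to make 6, where 14.5% of genes were called. The 3 late tumours left share a code prefix, so prefix and stage cannot be told apart in that fit.

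**Figure D4:**
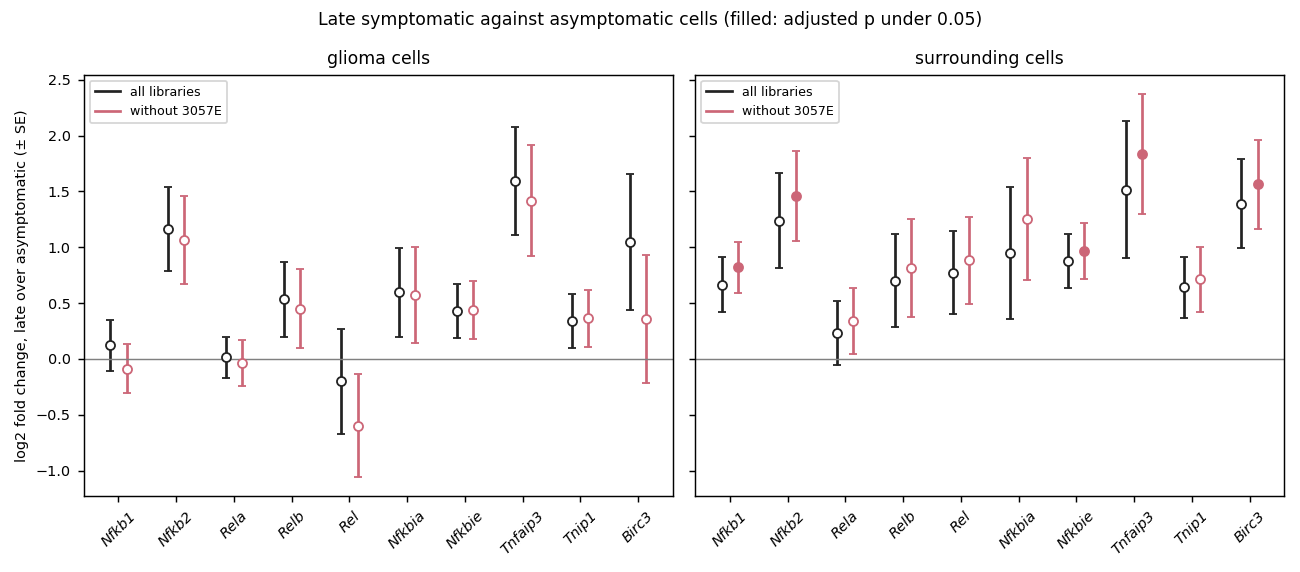
Log2 fold change of late symptomatic over asymptomatic cells for each member in glioma (left) and surrounding cells (right), with SE, in all libraries and without 3057E; filled points were called at adjusted p under 0.05. No point is filled in glioma cells, and in surrounding cells Nfkb1, Nfkb2, Nfkbie, Tnfaip3 and Birc3 are filled without 3057E.

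Late and early symptomatic surrounding cells gave a similar picture. The 10 members were positive with a median of 0.77, from 0.01 for Rela to 1.39 for Birc3. Nfkbie was at 20.3, 32.6, 36.7 and 21.9 CPM in late and 15.8, 13.6, 14.5 and 11.5 CPM in early surrounding cells, with no overlap (0.97 ± 0.24, SE, n = 4 per group, edgeR adjusted p = 0.0762), as 5.05% of genes did upwards. EdgeR called 0 members where 1.48% of 17616 genes were called, with 4 members and 2901 genes at an unadjusted p under 0.05. The DESeq2 count was 3, Nfkbie, Nfkb1 and Birc3, among 6.69% of genes. Without 3057E edgeR called 4 members, Nfkbie (1.06 ± 0.25), Nfkb1 (0.95 ± 0.23), Nfkb2 (1.38 ± 0.40) and Birc3 (1.57 ± 0.40), where 18.9% of genes were called, and the same number without 3057E and 3229B, where 22.4% were. Without 3108C it called 1, Birc3, whose early surrounding level of 36.0 CPM in that tumour stood above the 10.2 to 13.8 CPM of the other 3. Tnfaip3 was at 0.64 ± 0.60, and at -0.13 ± 0.54 without 3054B, the library with 438 CPM.

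In the same comparison 6 genes of the pathway lists rose past the test, where 1.41% of 17616 genes were called higher. They were the kinase gene Ikbke (2.85 ± 0.48, SE), the ligand Il1b (3.10 ± 0.52), the inhibitors Tnip3 (3.55 ± 0.61) and Trim30a (1.92 ± 0.33), and the targets Cxcl2 (3.95 ± 0.89) and Traf1 (2.60 ± 0.54). Il1b averaged 305 CPM in late and 34.7 CPM in early surrounding cells. Il1b, Trim30a and Cxcl2 follow the rule for named genes, and Ikbke, Tnip3 and Traf1 were named after their values were seen. No gene of the lists was called lower, where only 0.0681% of all tested genes were, though some had negative log2 fold changes.

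Some markers of other cells and the dissociation response moved with these values in the surrounding libraries, and other markers did not. Monocyte and macrophage markers summed to 5954, 7443, 10540 and 2023 CPM in late surrounding cells, against 1115 to 3292 CPM in early and 996 to 3705 CPM in asymptomatic ones, and 5 of 12 passed the test upwards in late against early. T and NK cell markers summed to 15.4 to 58.3 CPM in late, against 3.27 to 6.94 CPM in early and 10.1 to 28.3 CPM in asymptomatic surrounding cells. Immediate early genes summed to 3255, 9524, 6918 and 2458 CPM in late, against 2214 to 3062 CPM in asymptomatic surrounding cells, and 3054B was highest for these, for Tnfaip3 and for Nfkbia alike. Microglia markers summed to 9485, 11366, 13132 and 1679 CPM in late and 6842 to 11373 CPM in asymptomatic surrounding cells, so 3057E was low and the other 3 lay near the asymptomatic range. Oligodendrocyte progenitor markers went the other way, with median sums of 2898, 9966 and 8274 CPM in late, early and asymptomatic surrounding cells. Astrocyte markers did so too, with medians of 821, 2031 and 2097 CPM. In late against asymptomatic surrounding cells 0 of 12 and 0 of 10 of these markers had positive log2 fold changes, and 0 were called. The part of all these lists in the members' values was not tested.

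Early symptomatic against asymptomatic surrounding cells gave 0 members and 0 genes by edgeR (0% of 17616), with unadjusted p under 0.05 in 0 members and 645 genes, while DESeq2 called 0 members and 0.0571% of genes. The median of the members was 0.07, with 7 positive and 3 negative.

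Across libraries the members varied together more closely in the surrounding than in the glioma cells, given here as a description over libraries that share preparation and cell mixture. Over 12 surrounding libraries the 45 pairs of members had Pearson r of log2(CPM + 1) from 0.22 (Nfkbia with Relb) to 0.95 (Nfkb1 with Nfkb2), with a median of 0.76. Over 12 glioma libraries r ran from -0.25 (Tnfaip3 with Rela) to 0.79 (Tnfaip3 with Birc3), with a median of 0.42. The difference between these medians was not tested, and no r over other genes of like level was set beside it. Member levels are lower in glioma cells. Birc3 ranged only from 0.239 to 3.64 CPM there, so its r rests on low counts.

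The genes whose pattern over libraries was most like that of 2 members were sought among 10755 genes. In surrounding cells Tnfaip3 was most like Nfkbiz (r = 0.96), Gadd45b (0.96), Tnf (0.94), Map3k8 (0.93) and Klf6 (0.93). In glioma cells it was most like Tpd52 (0.97), Mr1 (0.96), Elf1 (0.93), Tspo (0.93) and Itpripl2 (0.92). The search took genes by their mean over all 24 libraries, and Tspo ranged only from 0.0994 to 2.504 CPM in glioma cells, so its r rests on low counts, as do the low ends of Mr1 (0.329 CPM) and, beside Nfkbia, Fblim1 (0.797 CPM). Nfkbia was most like Rpl30 (0.96), Rpl29, Tnf, Tagap and Rpl10a-ps1 in surrounding cells, with r from 0.94 to 0.96, and most like Tgm2 (0.92), Nek7, Sumf1, Fblim1 and Mapkapk2 in glioma cells, with r from 0.88 to 0.92. Each r is over 12 libraries of 1 population. The neighbours named for Tnfaip3 and Nfkbia in the glioma cells had no gene in common with those named in the surrounding cells. So few of the 10755 genes were kept per search that lists without a shared gene were likely in any case. Nothing about the populations follows from this. The glioma neighbours of Tnfaip3 also rest on its late and early glioma values, by which it was chosen.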

How the data were processed

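RNA of 24 libraries was measured. The authors deposited an expected count for each gene; the submitters' processing notes name STAR 2.7.5c, RSEM 1.3.1 and GRCm38. The annotation release and strand setting are not given in the sources used here. Expected counts were rounded to whole numbers. Coordinates and exon lengths are from GENCODE M21, which held 98.6% of the 55938 identifiers. No 2 libraries of a group were copies (lowest chi-square per degree of freedom 19.8). The test was that of edgeR 4.0.16 under R 4.3.3 (TMM, filterByExpr with a minimum count of 10, robust quasi-likelihood test, group means as terms), with Benjamini-Hochberg adjusted p called under 0.05 across every tested gene. Stage comparisons used the 12 libraries of 1 population, and populations and differences of stage effects in all 24. CPM are scaled by TMM over 24 libraries, and SE come from the F statistic. DESeq2 1.42.0 was an alternative.

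The members, lists and rule were chosen with earlier results of these data known. The rule names all members, up to 4 genes of each of 5 pathway lists with the smallest p between populations, and the 5 genes most correlated with Tnfaip3 and Nfkbia (mean log2 CPM of at least 3 over all 24 libraries, predicted genes left out). Pairs come from the tumour code, taken as the same animal, but Xist and Ddx3y disagreed within 3108D and 3109D as coded. Deviations from group means correlated at 0.025 to 0.48 over 12 pairs, over 0.1 in 9. The lowest values were those of 3109D (0.025) and 3108D (0.042). Whether libraries of a group come from separate litters is not given, so p-values measure the spread between these tumours.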

Additional observations from a re-analysis of the deposited data

Results flagged for a closer look

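Of 60 groups of 4 libraries (10 members in 6 groups) 6 held a library whose gap to its nearest neighbour, as a share of the group's range, passed Dixon's critical value for 4 values. The share was 0.839 to 0.937 in these 6, and chance passes about 1 group in 20. In 4 of them that library came from 3108C: its glioma cells stood at 36.6 CPM for Nfkbia and 37.7 CPM for Nfkb1, against at most 13.1 and 22.7 CPM in the other early gliomas, and its surrounding cells at 93.4 CPM for Rela and 36.0 CPM for Birc3, against at most 42.9 and 13.8 CPM. Nfkbia stood at 174 CPM in the asymptomatic surrounding cells of 3229B, against at most 67.4 CPM in the other 3. Nfkbie stood at 8.92 CPM in the asymptomatic glioma cells of 3228D, a small excess over the at most 7.14 CPM of the others.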

How the results depend on the processing

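The 10 members lower in glioma cells kept that number and direction under all alternatives, 10 without any 1 tumour and 10 with tumour as a replicate block. At single stages the replicate block gave 10, 9 and 10 members at the asymptomatic, early and late stages and 0 for both differences of stage effects. A fit in the 8 libraries of a stage gave 9, 8 and 10, with Rela in place of Relb at the asymptomatic stage and Relb lost at the early one, and no filter on low counts gave 9, 8 and 10. The early stage fell to 4 members without 3108D and 3109D. Leaving out each tumour in turn gave 0 to 2 members for late against early glioma cells (the comparison that chose Tnfaip3, whose counts test nothing), 0 to 5 for late against asymptomatic and 0 to 4 for late against early surrounding cells. DESeq2 called 1 member for late against asymptomatic glioma cells, 2 for late against early glioma cells, 2 for late against asymptomatic and 3 for late against early surrounding cells, and a fit in all 24 libraries called 1 in the last. Late against early glioma cells gave 0 without 3108D and 3109D. Without 3057E and 3229B, chosen after the data were seen, the 4 late comparisons gave 1 and 2 members in glioma cells and 6 and 4 in surrounding cells. The cause was not tested. Of 2424 log2 fold changes of members under alternatives 98 had another sign than the main value, and 0 of them lay between glioma and surrounding cells or in late against asymptomatic surrounding cells; the members concerned are given by their log2 fold changes. In late against asymptomatic glioma cells, leaving out 1 tumour gave Nfkb1 -0.087 to 0.23, Rel -0.60 to 0.12, Rela -0.12 to 0.11. Other turned values were Nfkb1 -0.10 and Rela -0.14 without tumours 3057E and 3229B, Rela -0.021 at a minimum count of 50, Rela -0.0077 without tumours 3108D and 3109D. In early against asymptomatic glioma cells, leaving out 1 tumour gave Nfkb1 -0.22 to 0.12, Nfkbia -0.30 to 0.57, Nfkbie -0.21 to 0.072, Relb -0.27 to 0.11, Tnip1 -0.075 to 0.23. Turned there too were Nfkbie 0.087 and Relb 0.15 and Tnip1 -0.0095 without tumours 3108D and 3109D, Tnip1 -0.063 without tumours 3057E and 3229B. In late against early glioma cells, leaving out 1 tumour gave Nfkb1 -0.12 to 0.32, Rel -0.27 to 0.46. There the sign also turned for Nfkb1 -0.11 and Rel -0.25 without tumours 3057E and 3229B, Nfkb1 -0.10 and Nfkbia -0.13 and Rel -0.093 without tumours 3108D and 3109D. In early against asymptomatic surrounding cells, leaving out 1 tumour gave Birc3 -0.57 to 0.19, Nfkb2 -0.19 to 0.31, Nfkbia -0.25 to 0.72, Rel -0.20 to 0.26, Rela -0.18 to 0.35, Relb -0.43 to 0.19, Tnip1 -0.058 to 0.36. Other turned values were Birc3 -0.032 in a fit of all 24 libraries, Birc3 -0.012 with no filter, Birc3 -0.080 and Nfkb2 -0.20 and Rel -0.21 without tumours 3057E and 3229B, Nfkb1 0.029 and Relb 0.20 without tumours 3108D and 3109D. In late against early surrounding cells, leaving out 1 tumour gave Rela -0.10 to 0.41, Tnfaip3 -0.13 to 1.10. Turned there too were Rela -0.28 without tumours 3108D and 3109D. In the late against asymptomatic difference between populations, leaving out 1 tumour gave Nfkb2 -0.43 to 0.19, Tnfaip3 -0.46 to 0.74. There the sign also turned for Tnfaip3 -0.022 by DESeq2, Tnfaip3 -0.024 with DESeq2 size factors, Tnfaip3 -0.041 at a minimum count of 50, Tnfaip3 -0.00084 without tumours 3108D and 3109D. In the early against asymptomatic difference between populations, leaving out 1 tumour gave Nfkb2 -0.52 to 0.072, Nfkbia -0.12 to 0.34, Nfkbie -0.012 to 0.25, Rela -0.10 to 0.31, Relb -0.092 to 0.21, Tnip1 -0.28 to 0.060. Other turned values were Nfkbia -0.12 and Rela -0.0017 without tumours 3057E and 3229B, Rela -0.16 and Relb -0.024 without tumours 3108D and 3109D. None of these turned values belonged to a called member. With 4 libraries per group, 1 tumour changed the number of called members in 3 of the 6 stage comparisons within a population.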
